A study of Homo sapiens with 3 samples.

Results

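The genes described here carry or answer signals of bone morphogenetic proteins (BMPs) in H9, an established line of human embryonic stem cells. The set was chosen by name, with earlier results of these data known, and holds 10 genes of the 58051 with counts. These are the ligand genes BMP4 and BMP7, the receptor genes BMPR1A and BMPR2, and the signal transducer genes SMAD1 and SMAD5. The target genes ID1, ID2, ID3 and ID4 complete the set. All 10 were found in the counts. Total RNA of wild-type, untreated H9 cells was sequenced after removal of ribosomal RNA in 3 replicates, with 1 library each, from cells grown in Essential 8 Flex medium on vitronectin. Nothing in the labels says whether the replicates came from separate cultures, so that the spread between them may be technical. The depth was 10390984 counts in replicate 1, 12024802 in replicate 2 and 8655155 in replicate 3. A single condition leaves no groups to compare, and levels were compared with the spread over the replicates.

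BMPs are secreted ligands that bring together type I receptors, such as BMPR1A, and type II receptors, such as BMPR2. The activated type I receptor phosphorylates SMAD1, SMAD5 and SMAD9, which join SMAD4, enter the nucleus and switch on target genes, among which the ID genes are the best known. ID proteins lack a DNA-binding region and hold E proteins, the partners of tissue-specific basic helix-loop-helix (bHLH) factors, away from DNA. In human pluripotent cells, added BMP is known to drive differentiation, while signals of activin and nodal through SMAD2 and SMAD3 support the undifferentiated state.

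Marker genes were examined first, since the levels of a bulk sample average over its cells, and fewer cells of a type and less RNA per cell cannot be told apart. The 5 pluripotent cell markers were all in the high class, defined below, against 28.8% of all protein-coding genes. Their summed level was 5265, 5262 and 5215 TPM (a count divided by gene length and scaled to the same sum in each library). LIN28A was the most abundant of them, at 2576 TPM on average, followed by DNMT3B at 1200 TPM, POU5F1 at 799 TPM and SOX2 at 397 TPM, so that LIN28A and DNMT3B made up most of the sum. SOX2 was highest in replicate 3, at 367, 378 and 446 TPM in replicates 1, 2 and 3, and NANOG was lowest there, at 298, 278 and 249 TPM. The 7 markers of trophectoderm and amnion, tissues that BMP can induce in such cells, summed to 8.71, 10.3 and 11.4 TPM, with KRT7 the most abundant at a mean of 6.70 TPM. GATA3 had a mean of 1.67 TPM and GATA2 1.37 TPM, and no read was counted on CDX2 or ISL1 in any replicate. The 7 mesendoderm markers summed to 52.2, 39.4 and 33.5 TPM in replicates 1, 2 and 3, led by MIXL1 with a mean of 22.3 TPM, and TBXT, which marks early mesoderm, had a mean of 1.75 TPM. The 5 neural markers summed to 5.31, 7.11 and 8.46 TPM, led by SOX1 at a mean of 2.97 TPM. The 5 fibroblast markers summed to 41.9, 40.9 and 46.7 TPM, led by the collagen gene COL1A2 at a mean of 25.6 TPM, while LUM had 2, 2 and 0 reads. The part of other cell types in the levels below was not tested.

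Genes were placed in the 4 expression classes of the study, with its threshold of 0.01 TPM for nonexpressed genes and 3 quantiles of the others, applied here to TPM computed from the deposited counts of 19629 protein-coding genes. A gene was in the high class from 27.0 TPM and in the medium class from 3.36 TPM. Of the 10 genes, 5 were in the high class (ID3, ID1, BMPR1A, ID2 and SMAD5), against 28.8% of all protein-coding genes, and the other 5 were in the medium class. With noncoding genes included in the classes, 8 of the 10 were in the high class, against 19.7% of all genes with a TPM. Each of the 10 genes reached 1 TPM in every replicate, as did 65.1% of protein-coding genes. The median over the 10 was 38.4 TPM, and that over all protein-coding genes was 7.10 TPM.

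**Figure D1:**
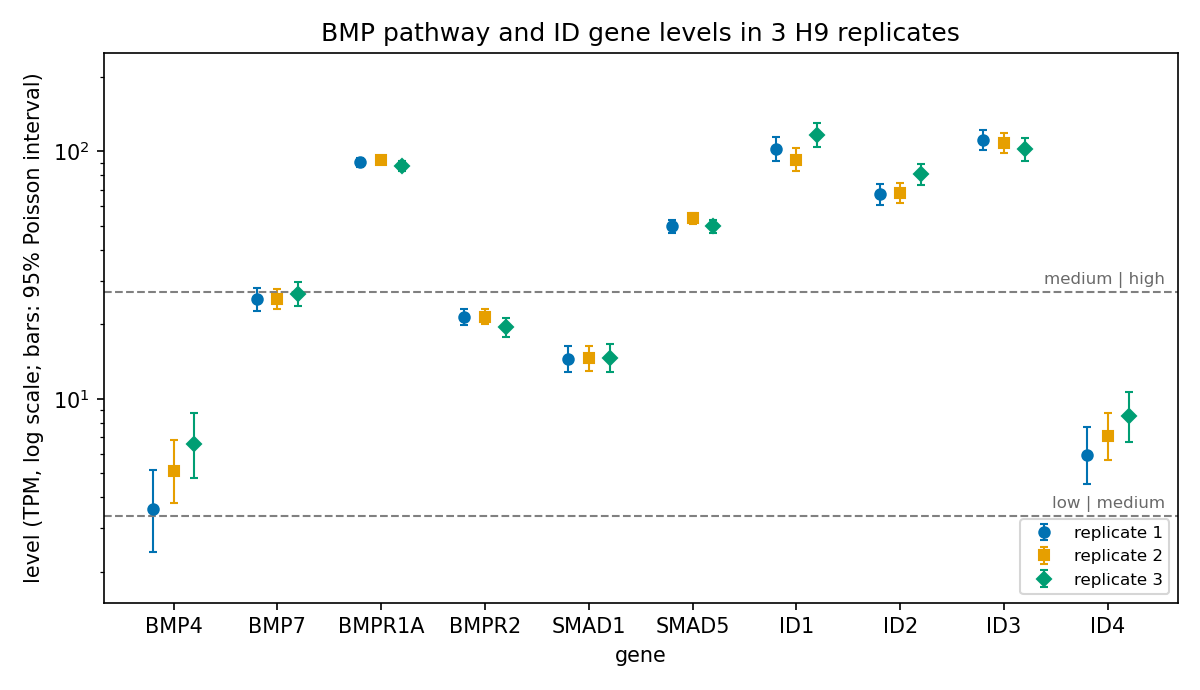
Level of the 10 genes in each of the 3 H9 replicates, in TPM on a log scale, with exact Poisson 95% intervals of the counts as bars. Dashed lines mark the class boundaries at 3.36 and 27.0 TPM, and BMP4 and ID4 lie lowest, with the widest bars.

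Both ligand genes were expressed below the level of the receptor gene BMPR1A. BMP7 (ENSG00000101144, GRCh38, chromosome 20, 57168753 to 57266641, minus strand) is a ligand gene of kidney and eye development. It had 356, 416 and 319 reads, or 25.2, 25.3 and 26.5 TPM in replicates 1, 2 and 3, a mean of 25.7 ± 0.707 TPM (SD, n = 3). The replicates lay close together, just under the high class. BMP4 (ENSG00000125378, chromosome 14, 53949736 to 53958761, minus strand), a ligand gene needed for mesoderm and the germ line in the mouse embryo, had the lowest level of the 10. It had 29, 48 and 45 reads, or 3.60, 5.12 and 6.55 TPM, a mean of 5.09 ± 1.48 TPM (SD, n = 3). Replicate 1 was low and replicate 3 high, and their exact Poisson 95% intervals, which cover counting error only, overlapped, at 2.41 to 5.17 and 4.78 to 8.76 TPM. When each replicate was classified by its own quantiles, the medium class began at 4.23, 4.32 and 4.75 TPM, and BMP4 was in the low class in replicate 1 and in the medium class in the others. The ratio of BMP4 to BMP7 was 0.143, 0.202 and 0.247, a mean of 0.197 ± 0.0524 (SD, n = 3), so that BMP7 was the more abundant transcript in every replicate. BMP4 shares 506 exon bases with the antisense gene ENSG00000287156, which was not analysed here. Whether reads of both genes in these bases were told apart depends on strand in the libraries and in the counting, and neither is stated.

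Of the 12 other BMP ligand genes, 2 reached 1 TPM in every replicate, BMP2 and GDF7, against 65.1% of protein-coding genes. BMP2, the nearest relative of BMP4, had 75, 121 and 137 reads, or 8.13, 11.3 and 17.4 TPM. It was above BMP4 in each replicate, and like BMP4 it was lowest in replicate 1 and highest in replicate 3. BMP2 had a mean of 12.3 TPM, against 9.24 TPM with the longest and 7.41 TPM with the canonical transcript as length. Its coefficient of variation (CV) was 38.5%, against 9.81% that counting error alone would give. GDF7 had a mean of 1.65 TPM, BMP8B 1.30 TPM and BMP6 1.16 TPM. No read was counted on BMP10, BMP15 or GDF2, of which BMP10 and GDF2 are ligands of heart and vessels and BMP15 of the oocyte. In replicate 3, the shallowest library, a count of 0 allows up to 3 counts, or 0.224 TPM for BMP10, 1.07 TPM for BMP15 and 0.408 TPM for GDF2.

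Receptor genes of both types were present, and BMPR1A was the higher. BMPR1A (ENSG00000107779, chromosome 10, 86756596 to 86932825, plus strand) encodes the type I receptor also called ALK3. It had 2368, 2803 and 1957 reads, or 90.3, 91.9 and 87.5 TPM, a mean of 89.9 ± 2.23 TPM (SD, n = 3). BMPR2 (ENSG00000204217, chromosome 2, 202376327 to 202567751, plus strand), a type II receptor gene, had 21.4, 21.5 and 19.5 TPM, a mean of 20.8 ± 1.13 TPM (SD, n = 3). Replicate 3 was the lowest for both. The ratio of BMPR1A to BMPR2 was 4.22, 4.28 and 4.50, a mean of 4.33 ± 0.144 (SD, n = 3), and it was 6.57 when the length of the longest or of the canonical transcript was used in place of the length of all exons. BMPR1A was above BMPR2 with each of the 4 lengths used.

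Copies of BMPR1A exist elsewhere in the genome. Over 1599 bases its transcript is 98.6% identical to the pseudogene BMPR1AP1, which had 0, 1 and 0 reads, and over 1011 bases it is 99.2% identical to BMPR1AP2, which had no read. A stretch of at most 279 bases, within positions 4161 to 4439 of the 6417 bases of the canonical BMPR1A transcript, matches transcripts of 39 other genes at 95% identity or more. How reads with several matches were counted is not stated, and the level of BMPR1A is uncertain to that extent.

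Among the 5 other receptor genes, 3 reached 1 TPM in every replicate, a share near the 65.1% of protein-coding genes. ACVR2B, a type II receptor gene shared by activin, nodal and BMP ligands, had 122, 116 and 114 TPM. It was thus above BMPR2 in every replicate, and its mean of 117 TPM was also above that of BMPR1A. ACVR2A had a mean of 19.7 ± 0.397 TPM (SD, n = 3), close to BMPR2, and the type I receptor gene ACVR1 had 8.59 ± 0.748 TPM (SD, n = 3). BMPR1B, a type I receptor gene known from limb and ovary, had 20, 26 and 8 reads, or 1.17, 1.31 and 0.549 TPM. ACVRL1, the receptor gene of endothelial cells, had 0, 1 and 5 reads and was named after its values were seen.

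SMAD5 was the more abundant of both SMAD genes in the set. SMAD5 (ENSG00000113658, chromosome 5, 136132845 to 136188747, plus strand) had 1172, 1469 and 998 reads, or 49.8, 53.7 and 49.7 TPM, a mean of 51.1 ± 2.27 TPM (SD, n = 3). SMAD1 (ENSG00000170365, chromosome 4, 145481194 to 145559176, plus strand) had 267, 313 and 231 reads, or 14.5, 14.6 and 14.7 TPM, a mean of 14.6 ± 0.107 TPM (SD, n = 3). The replicates of SMAD1 lay closer together than counting error alone would place them, with a CV of 0.734% against 6.13%, so that counting error is the larger error of its level. The ratio of SMAD1 to SMAD5 was 0.290, 0.271 and 0.295, a mean of 0.286 ± 0.0124 (SD, n = 3). It was 0.477 with the longest and 0.524 with the canonical transcript as length, since the exons of SMAD1 add up to 7094 bases and its canonical transcript has 3002. SMAD5 was above SMAD1 with each of these lengths.

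More reads for its length were assigned to the antisense gene of SMAD1 than to SMAD1, but most of its bases are shared with SMAD1. SMAD1-AS1 has 376 of its 481 exon bases on SMAD1 exons and had 86, 103 and 65 reads, or 528 counts per kb over the 3 replicates, against 114 counts per kb on SMAD1. The paper names the NEBNext Ultra II RNA kit and does not say that the libraries kept strand. Whether the counting used strand is not given in the sources used here either. Reads in the shared bases could therefore come from either gene, and the levels of both genes are uncertain. SMAD5 shares 610 bases with SMAD5-AS1, which had 13, 5 and 6 reads, or 13.2 counts per kb against 403 on SMAD5.

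The 4 genes on the list of other SMADs all reached 1 TPM in every replicate, against 65.1% of protein-coding genes. SMAD4, the shared partner, had 24.5, 26.3 and 28.0 TPM. Its mean of 26.2 TPM was 43.3 TPM with the longest and 35.4 TPM with the canonical transcript as length. SMAD3 had 32.9 and 26.4 TPM with these lengths, below SMAD4, and 28.2 TPM with the length of all exons, above it. SMAD7, an inhibitor of both branches, was at 87.8, 85.8 and 74.1 TPM, lowest in replicate 3. SMAD6, the inhibitor directed at the BMP branch, had a mean of 6.05 ± 0.196 TPM (SD, n = 3), and SMAD9 had 1.81 ± 0.248 TPM (SD, n = 3), so that SMAD5, SMAD1 and SMAD9 followed in this order in every replicate. SMAD3 and SMAD2, of the activin and nodal branch, had means of 28.2 and 22.2 TPM, between SMAD5 and SMAD1. With the longest or the canonical transcript as length, SMAD2 was below SMAD1, at 17.6 against 23.6 TPM and 14.1 against 20.8 TPM, and SMAD3 was above it.

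Genes that modulate BMP signals were examined outside and inside the cell. Of the 15 genes of secreted antagonists and binding proteins, 7 reached 1 TPM in every replicate, against 65.1% of protein-coding genes. TWSG1, whose product binds BMP together with chordin, had a mean of 55.6 TPM, CER1, an antagonist of BMP and nodal, 34.7 TPM, and CRIM1, a membrane-bound binding protein gene, 28.8 TPM. FST, whose product follistatin binds activin and some BMPs, had 19.0, 21.7 and 30.8 TPM and was highest in replicate 3. The classical antagonist gene NOG, named here after its values were seen, had 2, 5 and 3 reads, or 0.402, 0.864 and 0.707 TPM, and no read was counted on SOST. Of the 12 membrane and intracellular regulators, 11 reached 1 TPM in every replicate, against the same 65.1%. The nuclear repressor gene SKIL had the highest mean of the 48 other pathway genes, at 276, 271 and 237 TPM. SKI, its relative, had a mean of 79.2 TPM, LEMD3, a nuclear envelope protein gene that restrains SMADs, 61.4 TPM, and NEO1, a receptor gene of the repulsive guidance molecules, 60.4 TPM. Over the lists of ligands, receptors, SMADs, antagonists and regulators together, 27 of 48 genes reached 1 TPM in every replicate, against 65.1% of protein-coding genes. At limits of 0.1 and 5 TPM it was 39 and 22 of them, against 77.3% and 52.6% of protein-coding genes.

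**Figure D2:**
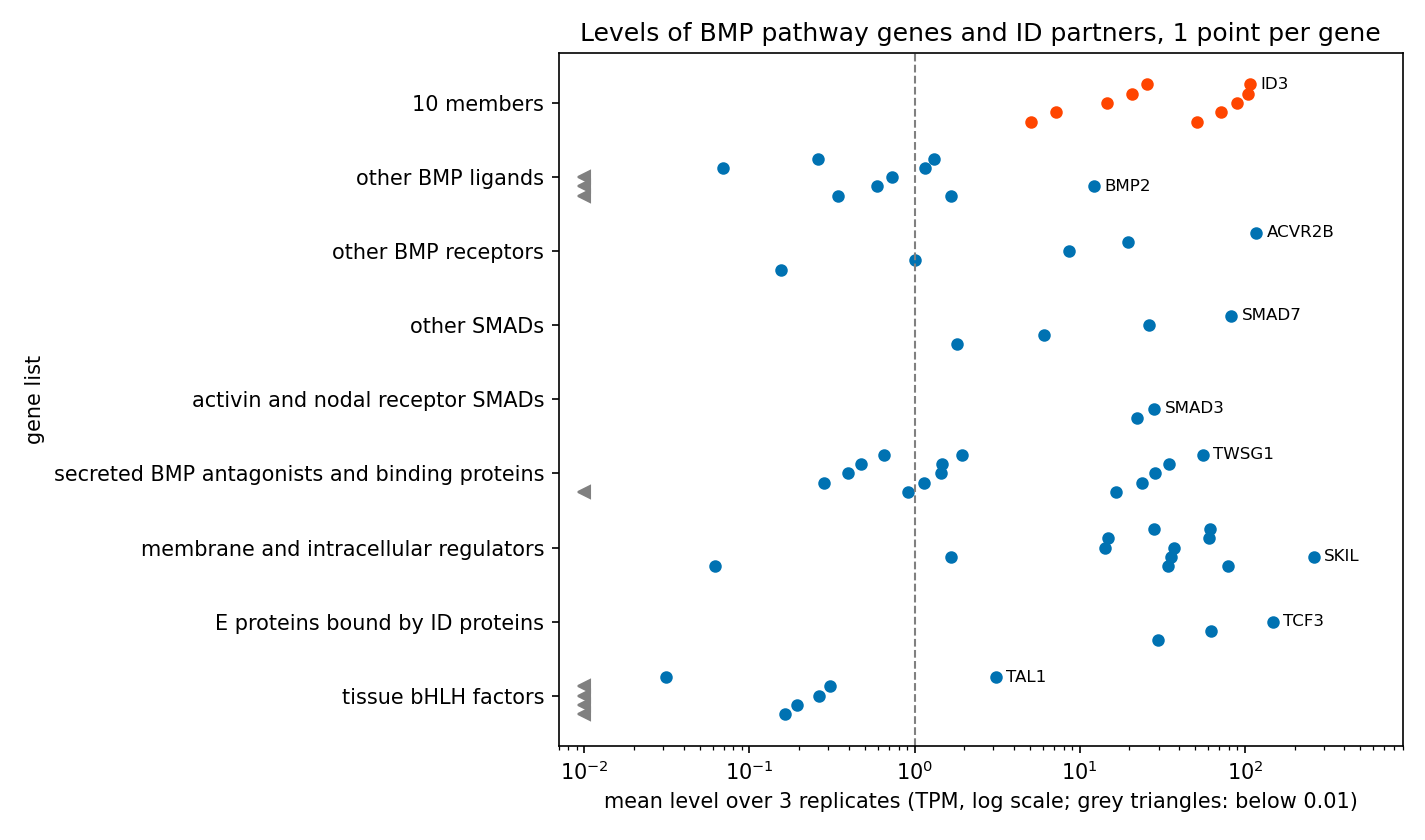
Mean TPM over the 3 H9 replicates on a log scale, with 1 point per gene, for the 10 genes and for the lists of other pathway genes and ID partners. The dashed line marks 1 TPM, grey triangles at the left edge mark genes below 0.01 TPM, the gene with the highest mean is named in each list, and the 10 genes all lie right of the line.

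Of the ID genes, 3 were in the high class, against 28.8% of all protein-coding genes, and ID4 was in the medium class. The 250 bases before the start of ID1, ID3 and ID4 in the RefSeq table (GRCh38.p14) are shown because these genes of a single family cover the highest and the lowest ID levels in the set. Of the 10 genes, 9 had an entry in that table and BMP7 had none. Capitals mark GTCT or its reverse complement AGAC, letters that SMAD proteins are known to bind, and TATAA or its reverse complement TTATA, the core of the TATA box. ID1 lies on the plus strand, with its window at chr20:31605039-31605288. ID3 lies on the minus strand, with its window at chr1:23559502-23559751 printed in the direction of the gene. ID4 lies on the plus strand, with its window at chr6:19837120-19837369.
ID1: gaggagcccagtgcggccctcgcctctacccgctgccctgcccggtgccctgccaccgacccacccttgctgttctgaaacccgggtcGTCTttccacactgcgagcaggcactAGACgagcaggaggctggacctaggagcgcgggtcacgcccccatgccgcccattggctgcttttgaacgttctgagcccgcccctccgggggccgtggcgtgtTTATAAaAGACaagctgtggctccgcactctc
ID3: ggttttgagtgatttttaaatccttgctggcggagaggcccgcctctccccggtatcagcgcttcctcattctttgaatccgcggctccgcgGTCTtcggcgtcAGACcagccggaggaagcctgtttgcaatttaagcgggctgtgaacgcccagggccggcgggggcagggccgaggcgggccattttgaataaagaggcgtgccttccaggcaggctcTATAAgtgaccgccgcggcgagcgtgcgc
ID4: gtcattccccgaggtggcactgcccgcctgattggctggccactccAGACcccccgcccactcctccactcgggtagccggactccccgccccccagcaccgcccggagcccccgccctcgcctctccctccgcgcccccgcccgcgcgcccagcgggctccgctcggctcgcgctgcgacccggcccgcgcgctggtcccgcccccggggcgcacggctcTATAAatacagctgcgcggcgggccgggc

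In the annotation, the last 6 bases of the ID1 window are exon of ID1, and 88 bases of it are exon of the antisense gene ENSG00000289875. The windows of ID3 and ID4 hold no annotated exon. Most of the ID2 window, 202 of 250 bases, is annotated exon of ID2, and it is not printed.

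Motifs were searched on both strands in all 35116 promoters of the table, over the same 250 bases, and were chosen after the sequences had been seen. GTCT was found in 77.5% of promoters, and in those of ID1, ID2, ID3 and ID4 there were 3, 2, 2 and 1 matches. GGCGCC, a letter string of BMP-responsive SMAD elements, was in 16.4% of promoters and in none of the 4. TATAA was in 18.9% of promoters, and in ID1, ID3 and ID4 it began at positions -31, -29 and -29 from the start. In ID1, TTATA at position -32 overlaps that match, and ID2 had neither. CCAAT or its reverse complement ATTGG was in 32.0% of promoters, with 1, 3, 0 and 1 matches in ID1, ID2, ID3 and ID4. CANNTG, the E-box to which bHLH dimers bind, was in 61.8% of promoters and occurred 1 time each in ID2 and ID4. Such matches describe letters in a window and do not show binding.

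ID1 (ENSG00000125968, chromosome 20, 31605283 to 31606515, plus strand), the most studied direct target of SMAD1 and SMAD5, had 328, 346 and 320 reads, or 102, 92.7 and 117 TPM. Its mean was 104 ± 12.2 TPM (SD, n = 3), with replicate 3 high and replicate 2 low. ID2 (ENSG00000115738, chromosome 2, 8678845 to 8684461, plus strand), a gene required for innate lymphoid cells, had 386, 454 and 397 reads, or 67.0, 67.8 and 80.8 TPM. Replicate 3 stood above the other replicates, which lay within 1 TPM of each other, and the mean was 71.9 ± 7.76 TPM (SD, n = 3). ID3 (ENSG00000117318, chromosome 1, 23557926 to 23559501, minus strand), which acts with ID1 in forebrain and vessels of the mouse embryo, had 433, 490 and 339 reads, or 111, 108 and 102 TPM. Here replicate 3 was the lowest, and the mean was 107 ± 4.64 TPM (SD, n = 3). ID4 (ENSG00000172201, chromosome 6, 19837370 to 19842197, plus strand), known from neural progenitors and spermatogonial stem cells, had 60, 83 and 73 reads, or 5.95, 7.08 and 8.49 TPM. Its mean was 7.18 ± 1.27 TPM (SD, n = 3), with replicate 1 low and replicate 3 high, and the exact Poisson 95% intervals of these replicates overlapped, at 4.54 to 7.66 and 6.66 to 10.7 TPM.

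Together the ID genes had 286, 276 and 308 TPM. ID1 made up 35.7%, 33.6% and 37.9% of this sum, a mean of 35.7 ± 2.15% (SD, n = 3). The share of ID3 was 38.8%, 39.2% and 33.1%, a mean of 37.1 ± 3.43% (SD, n = 3), so that ID3 was ahead of ID1 in replicates 1 and 2 and behind it in replicate 3. ID2 held 23.4%, 24.6% and 26.2%, a mean of 24.7 ± 1.41% (SD, n = 3), and ID4 2.08%, 2.57% and 2.75%, a mean of 2.47 ± 0.349% (SD, n = 3). With the length of all exons, ID2 was below ID1 and ID3 and above ID4 in every replicate. With the canonical transcript ID1 had 78.7 ± 9.54 TPM (SD, n = 3) and ID2 73.9 TPM, closer together than the SD of ID1. With counts scaled to the library total but not divided by length, the share of ID4 was 5.83%, as ID4 has the longest exons of the family, 3873 bases in all. In this unit ID2, at 33.4%, was above ID1, at 26.9%. ID2 is 95.6% identical over 405 bases to the copy ID2B, on which no read was counted, and 145 bases of it are shared with ID2-AS1, which had 6, 9 and 3 reads.

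The 3 E protein genes, whose products the ID proteins bind, were all in the high class, against 28.8% of all protein-coding genes. By the quantiles of replicate 3 alone, TCF4 was in the medium class there. TCF3 had 145, 137 and 161 TPM, TCF12 a mean of 62.5 TPM and TCF4 29.7 TPM, and they summed to 240, 232 and 248 TPM, below the sum of the ID genes in every replicate. This order rested on the gene length: with the longest transcript the E protein genes summed to 302, 293 and 307 TPM, above the ID genes at 267, 258 and 282 TPM, and with the canonical transcript or unshared exons they were below them in every replicate. These are levels of RNA, and amounts of protein were not measured. Of 10 tissue bHLH genes, 1 reached 1 TPM in every replicate, against 65.1% of protein-coding genes. It was TAL1, a blood factor gene with a mean of 3.11 TPM. HAND1, ATOH1 and MYF5 had between 2 and 5 reads over the 3 replicates, and no read was counted on NEUROG1, NEUROG2, MYOD1 or HAND2. In replicate 3 a count of 0 allows up to 0.803, 0.589, 0.750 and 0.375 TPM for these genes.

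Other genes known to respond to BMP differed widely in level. Of 7 such genes, 5 reached 1 TPM in every replicate, a share near the 65.1% of all protein-coding genes. SMAD7 and BAMBI, a decoy receptor gene with 39.5, 31.5 and 32.2 TPM, were in the high class, which held 28.8% of all protein-coding genes. SMAD6 was medium, and HEY1, a bHLH repressor gene also known from Notch signals, was low, with a mean of 2.89 TPM. The list median was 2.89 TPM, against 87.9 TPM over the ID genes.

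Ordered by mean level, the 10 genes were ID3, ID1, BMPR1A, ID2, SMAD5, BMP7, BMPR2, SMAD1, ID4 and BMP4. With the length of all exons, ID3 and ID1 did not differ beyond their spread: their means were 3.22 TPM apart, less than either SD, and ID3 was higher in 2 of 3 replicates. The other 8 neighbouring pairs kept their order in every replicate and differed by more than both SDs. For ID4 and BMP4 the ranges over the replicates overlapped all the same, and these genes had the fewest reads, 216 and 122 over the 3 replicates. ID1 and BMPR1A lay close together in replicate 2, at 92.7 and 91.9 TPM. Their exact Poisson 95% intervals overlapped in replicates 1 and 2 but not in replicate 3. Part of the order rested on the gene length used. With the longest transcript ID3 had 127 ± 5.09 and ID1 78.2 ± 9.42 TPM, and with the canonical transcript 102 ± 4.03 and 78.7 ± 9.54 TPM (SD, n = 3). With both lengths ID3 was higher in all 3 replicates, and the means differed by more than either SD. BMPR1A, at 106 TPM with the longest transcript, was above ID1 in every replicate, and their means differed by more than either SD. With the canonical transcript BMPR1A had 85.2 TPM, and the difference from ID1, 6.48 TPM, was less than the SD of ID1. With the longest and the canonical transcript SMAD1, at 23.6 and 20.8 TPM, was above BMPR2, at 16.2 and 13.0 TPM, in every replicate and by more than either SD. BMP4, at 6.14 and 4.93 TPM, and ID4, at 5.40 and 4.33 TPM, did not differ beyond their spread with these lengths, and BMP4 was higher in 2 of 3 replicates. BMP7 and SMAD1 had nearly the same mean with the canonical transcript, 20.9 and 20.8 TPM, against 25.7 and 14.6 TPM with the length of all exons. By their means, ID2 was above SMAD5 and SMAD5 above BMP7 with each of the 4 lengths.

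**Figure D3:**
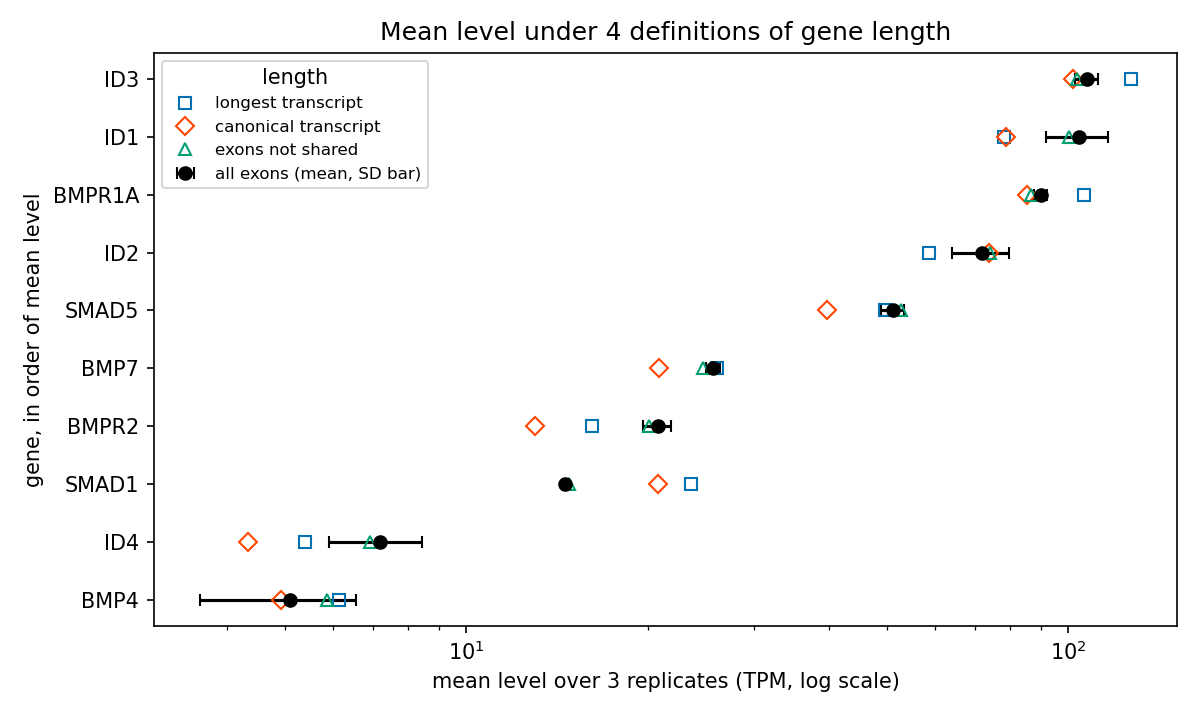
Mean TPM of the 10 genes over 3 replicates on a log scale, in order of level, with the SD as bar for the length of all exons and open symbols for 3 other definitions of gene length. SMAD1 moves up from 14.6 to 23.6 TPM with the longest transcript, while BMPR2 moves down from 20.8 to 13.0 TPM with the canonical transcript.

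The replicates were compared gene by gene as log2 ratios of CPM (counts scaled to the same total in each library), with 0.5 added to each count. Replicate 3 against the mean of the others gave 0.64 for BMP4, 0.42 for ID4, 0.29 for ID1 and 0.29 for ID2. The ratio was 0.10 for BMP7, 0.05 for SMAD1 and below 0 for BMPR1A, BMPR2, SMAD5 and ID3, where BMPR2 was lowest at -0.11. The median over the 10 genes was 0.07, and that over the 9386 protein-coding genes that reached 100 counts in each library was 0.00. Over the 8 of the 10 genes that reached 100 counts in every replicate, all but BMP4 and ID4, the median was 0.01.

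By TPM, 6 of the 10 genes were highest in replicate 3 (BMP4, BMP7, SMAD1, ID1, ID2 and ID4), against 35.4% of protein-coding genes with 20 counts or more in each library. The other 4 (BMPR1A, BMPR2, SMAD5 and ID3) were lowest in replicate 3, as were 43.4% of the protein-coding genes with 20 counts or more. Among the 8 with 100 counts or more in each library, 4 were highest in replicate 3 and 4 were lowest there, against 31.9% and 48.2% of such protein-coding genes. After rescaling by TMM factors or by DESeq2 size factors SMAD1 was no longer highest in replicate 3, and 5 of the 10 were. On TPM with TMM factors, the log2 ratios of replicate 3 were 0.23 for ID1 and 0.22 for ID2. They were 0.29 for both on CPM without the factors, so that unit and factors both differ between these values. Their CVs were 11.7% and 10.8%, against 5.50% and 4.94% from counting error alone, and that of BMP4 was 29.0% against 16.1%.

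The chi-square of the counts per degree of freedom, which is near 1 where libraries differ by counting error alone, was 5.33 for ID1 and 5.55 for ID2. It was above these values in 14.1% and 13.4% of protein-coding genes with 20 counts or more in each library. BMP4 had 3.50, ID4 2.41 and SMAD5 2.26, and the other 5 genes were at 1.14 or below, where the median of protein-coding genes was 1.42. GC content of the canonical transcript had a median of 48.5% over the 6 genes highest in replicate 3 and 39.2% over the other 4. ID1 and ID2, both higher in replicate 3, had 57.9% and 42.5%, and ID3, lowest in replicate 3, had 56.7%. Marker genes also differed between replicates. Of the markers with a read, the ratio of replicate 3 to the mean of the others was above 0 for 3 of 5 neural, 4 of 5 fibroblast, 2 of 7 mesendoderm and 2 of 5 trophectoderm and amnion markers, against 55.0% of protein-coding genes with a read. At 20 counts or more in each library, 3 of 3 neural, 3 of 3 fibroblast and 0 of 3 mesendoderm markers were above 0. The only such trophectoderm and amnion marker, KRT7, was also above 0, and the median of such protein-coding genes was 0.01. The ratio of replicate 3 was 0.67 for SOX1, 0.67 for DCX, 0.43 for KRT7 and 0.27 for COL1A1, and it was -0.53 for MIXL1 and -0.53 for EOMES. The ratio of replicate 1 was -0.85 for SOX1, -0.81 for DCX, -0.36 for KRT7, -0.13 for COL1A1, 0.53 for MIXL1 and 0.62 for EOMES. For the genes of the set it was -0.70 for BMP4 and -0.40 for ID4, about as far from 0 as in replicate 3, but -0.05 for ID1 and -0.16 for ID2, closer to 0 than in replicate 3. FOXA2 was at 0.50 in replicate 1 and -0.10 in replicate 3. Among the pluripotent cell markers the ratio of replicate 3 was 0.29 for SOX2, as for ID1 and ID2, and -0.18 for NANOG. The part of GC content and that of the cell types marked by these genes in the differences between replicates were not tested.

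**Figure D4:**
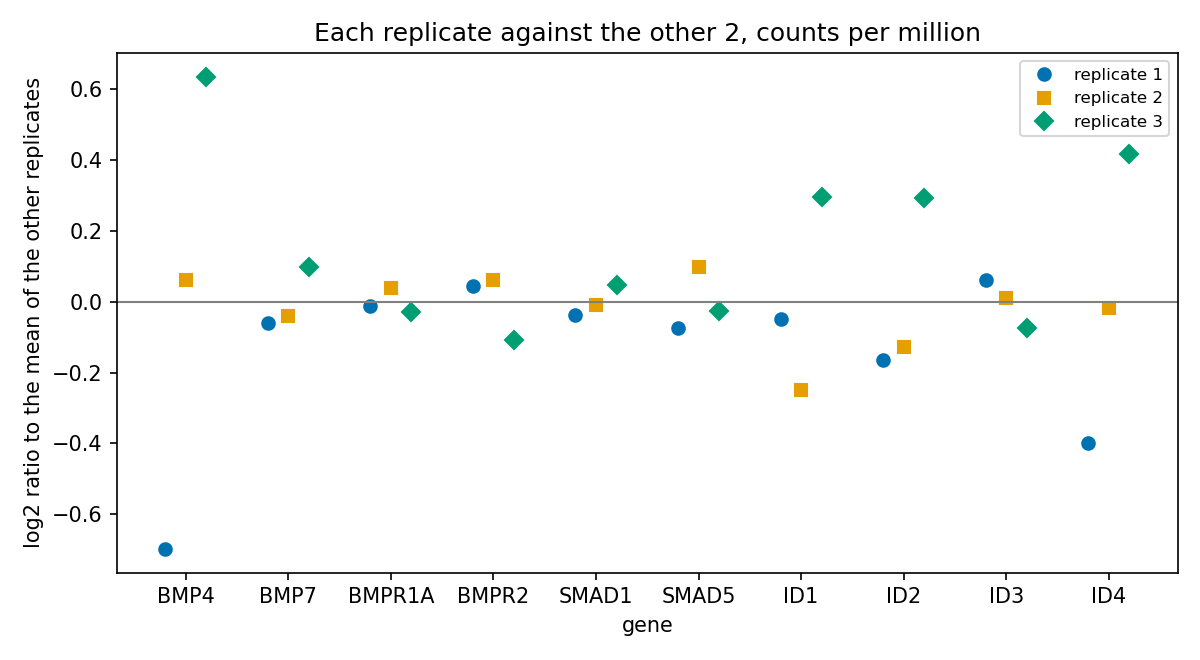
Log2 ratio of CPM in each replicate to the mean of the other replicates, for the 10 genes. Replicate 3 lies at 0.29 or more for BMP4, ID1, ID2 and ID4 and within 0.11 of 0 for the other 6 genes, and replicate 1 of BMP4 is lowest at -0.70.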

How the data were processed

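Total RNA of 3 replicates of H9 cells was sequenced. Per the submitters' processing notes, the authors used Trim Galore 0.4.4, TopHat2 2.1.1 and Cufflinks 2.2.1 with GRCh38. The deposited values are raw counts of reads per gene. How reads were counted (tool, annotation, strand) is not given in the sources used here.

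Of the identifiers, 56948 (98.1%) matched GENCODE release 44. TPM was computed from the counts and the length of the union of exons. Scaling factors came from edgeR 4.0.16 (TMM) and DESeq2 1.42.0, sequence copies from blastn 2.17.0 (100 bases or more, 95% identity), and the rest from Python 3.11.15 (pandas 2.3.3, scipy 1.17.1, numpy 2.4.6) and R 4.3.3. The code was tested on simulated data. Intervals are exact Poisson at 95%, and for a count of 0 the limit given is that of 3 counts.

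Genes named were the 10 genes, up to 4 of highest mean TPM and those without a read from each list, and overlapping or near-identical genes. ACVRL1, NANOG, NOG and ENSG00000289875 were named outside this rule. Members and lists were chosen with earlier results of these data known. The limit of 20 counts, the motifs, the minimum of 100 bases for unshared exons and the count of genes highest in replicate 3, with its alternatives, and other gene lengths for genes outside the 10 were added after seeing the data. With 1 condition no test was made.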

Additional observations from a re-analysis of the deposited data

How the results depend on the processing

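The number of genes in the high class was 5 under 14 of 15 alternatives and 8 with noncoding genes included in the classes. Among the 14, TMM factors, DESeq2 size factors and leaving out mitochondrial genes rescale all genes of a library alike. They could hardly change the classes. All 10 genes reached 1 TPM in every replicate under the 3 other lengths and the 3 scalings. At a limit of 5 TPM, with the length of all exons, 9 did, against 52.6% of protein-coding genes. The count of pathway genes, 27 of 48, lay between 24, with the canonical transcript, and 28 under the other lengths and scalings, between 27 and 30 with 1 replicate left out, which can only raise it, and was 39 at 0.1 TPM and 22 at 5 TPM, against 77.3% and 52.6% of protein-coding genes. With the longest transcript, the ratio of BMPR1A to BMPR2 was 6.57, that of SMAD1 to SMAD5 0.477, and the shares of ID1, ID2, ID3 and ID4 were 29.0%, 21.7%, 47.3% and 2.00%. With the canonical transcript these ratios were 6.57 and 0.524, and the shares of ID1, ID2 and ID4 were 30.3%, 28.5% and 1.67%. CPM in place of TPM, another unit, gave a ratio of 0.113 for BMP4 to BMP7, 3.49 for BMPR1A to BMPR2 and 0.224 for SMAD1 to SMAD5, and shares of 26.9%, 33.4% and 5.83% for ID1, ID2 and ID4. These values follow from the lengths by which the counts are divided. Unshared exon length moved none of these ratios and shares by more than its SD.

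Of the 10 mean levels, the longest transcript moved 7 by more than the SD (3 higher, 4 lower), the canonical transcript 8 (1 higher, 7 lower), unshared exons 3 (1 higher, 2 lower) and mitochondrial genes left out of the total 3 (all higher), while TMM factors, DESeq2 size factors and the median moved none. A mean of 3 values cannot shift past its SD when 1 value is dropped. Their median cannot lie further than the SD from the mean either. The TMM and DESeq2 factors lay between 0.985 and 1.02, on both sides of 1, and nearly cancel in a mean over the replicates. These alternatives therefore could not test the mean levels. Without replicate 1, 2 or 3 the ratio of BMP4 to BMP7 lay between 0.172 and 0.225. The median log2 ratio of replicate 3, 0.07, was 0.03 with TMM factors, 0.03 with DESeq2 size factors and 0.08 with 5 added to each count. The number of genes highest in replicate 3 was 6 with mitochondrial genes left out. Depth limits BMP4 and ID4 most, with fewer than 100 reads in each replicate. No paired analysis was possible because all libraries share 1 condition.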
